A study of Bos taurus with 9 samples.

Results

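The regions described here were stretches of the cattle genome at which chromatin immunoprecipitation followed by sequencing (ChIP-seq) gave a peak of acetylated lysine 9 of histone H3 (H3K9ac) and no overlapping peak of acetylated lysine 27 (H3K27ac). They were found by merging all overlapping peaks, by 1 bp or more, of the H3K9ac and H3K27ac lists of both conditions on chromosomes 1 to 29, and by keeping the merged regions that held H3K9ac of either condition and H3K27ac of neither. This gave 752 regions, which were 11.3% (95% interval 10.5 to 12.1) of the 6669 merged regions with H3K9ac and 1.60% of all 46982 merged acetylation regions. The remaining 5917 H3K9ac regions overlapped H3K27ac and served for comparison. The regions were chosen by the H3K9ac and H3K27ac peak calls themselves, so every value below that rests on these calls alone (their number, condition, width, persistence and distance) is a description and not a finding.

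The tissue was rumen of Holstein cattle, the first stomach chamber, in which microbes ferment plant fibre to short-chain fatty acids. The control libraries came from tissue taken before treatment and the butyrate libraries from tissue taken after 24 h of butyrate. The methods name butyrate infusion and rumen biopsies, and call the material of the ChIP-seq rumen epithelial tissues. The age and number of the animals behind each library are not given in the sources used here. Tissue and not separated cells was assayed, so the cell types that carried a peak cannot be told. The 8 peak lists used here, 1 library for each antibody and condition, were of both acetylation marks, of RNA polymerase II (RNA pol II) and of H3K9me3, trimethylation at lysine 9. With 1 library per group no difference between the conditions has a replicate check and no test was run. The intervals given are 95% intervals, Wilson ones for shares, exact binomial ones for ratios and those from order statistics for medians, and they cover counting error only.

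Butyrate inhibits histone deacetylases, the enzymes that take acetyl groups off histone tails. H3K9ac and H3K27ac are both known from active promoters and enhancers, are added by different acetyltransferases and are usually found at the same places. H3K9me3 in contrast marks silent heterochromatin, much of it repeats, and occupies the same lysine as H3K9ac, so a histone tail can carry either mark but not both on that residue. RNA pol II is the enzyme that transcribes protein-coding genes. All lists hold peaks of at least 200 bp without a score or read number, so an absent peak means that none was called and not that the mark was absent. For both acetylation marks, control was sequenced on lane 1 and butyrate on lane 3, so for these marks the condition and the lane cannot be told apart. H3K9me3 was on lane 3 in control and on lane 4 after butyrate, with the same limit, and both RNA pol II libraries were on lane 3.

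The first question was in which condition these regions carried H3K9ac. Of the 752 regions, 346 had H3K9ac in control only, 387 after butyrate only and 19 in both. These were 46.0% (42.5 to 49.6), 51.5% (47.9 to 55.0) and 2.53% (1.62 to 3.91) of the regions, against 38.4%, 40.9% and 20.7% over all 6669 H3K9ac regions. Among the 5917 regions with H3K27ac, 1361 or 23.0% (21.9 to 24.1) had H3K9ac in both conditions. These shares come from the same H3K9ac calls that chose the regions and describe the 2 classes only. Regions with H3K27ac were wider and could be called in both conditions through separate H3K9ac peaks, so overlaps of the peaks themselves are given further on. The regions held 365 control and 406 butyrate peaks of H3K9ac, a log2 ratio of butyrate to control of 0.15 (-0.05 to 0.36), beside 0.06 (0.00 to 0.12) for all H3K9ac peaks of these chromosomes. The interval of the first ratio includes 0. Where an overlap had to cover 50% of the shorter peak the log2 ratio was 0.23 (0.03 to 0.42), the only setting with an interval above 0. These ratios too rest on the calls that chose the regions and describe peak numbers only.

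**Figure D1:**
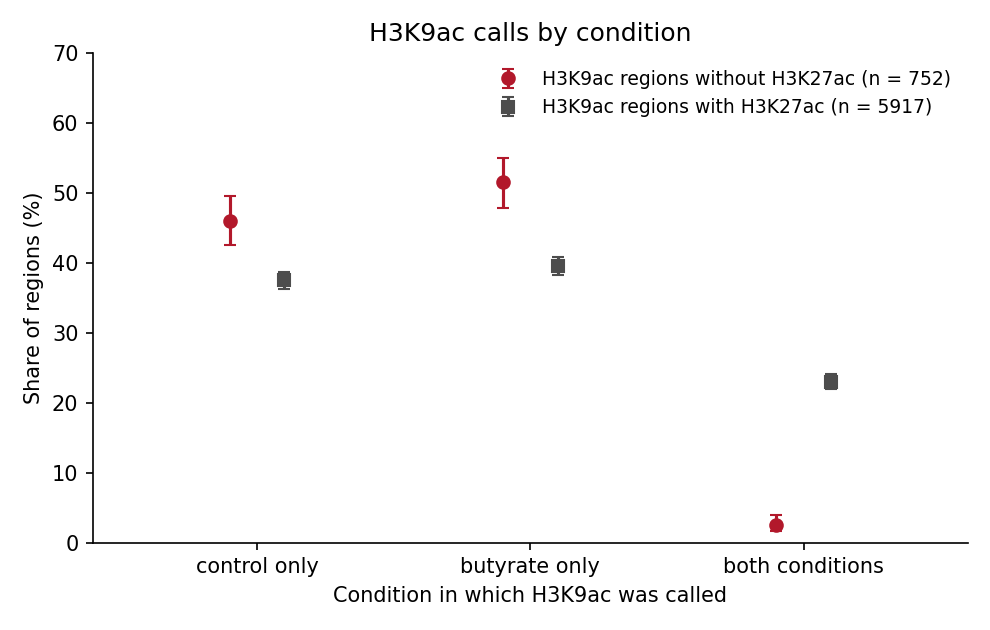
Share of H3K9ac regions (%, y axis) called in control only, after butyrate only or in both conditions (x axis), for the 752 regions without H3K27ac (circles) and the 5917 with H3K27ac (squares); bars are Wilson 95% intervals. The classes lie farthest apart for both conditions, at 2.53% and 23.0%.

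The H3K9ac peaks in these regions were narrow. In control their median width was 224 bp (219 to 229) and the widest was 466 bp, against a median of 250 bp (247 to 253) and a widest peak of 1030 bp among the peaks under H3K27ac. After butyrate the medians were 218 bp (214 to 224) and 250 bp (247 to 253), and the widest peaks 498 bp and 945 bp. The minimum width of 200 bp was that of 24.1% (20.0 to 28.8) of the control peaks without H3K27ac, and of 25.9% (21.8 to 30.3) of the butyrate ones. For the peaks under H3K27ac these shares were 10.4% (9.41 to 11.4) and 11.7% (10.7 to 12.8). None of the 365 control and 406 butyrate peaks was wider than 500 bp, whereas 115 and 108 peaks under H3K27ac were.

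Since narrow peaks were found less often in the other condition, peaks were also compared within classes of width. Over all widths 19 of the 365 control peaks, 5.21% (3.36 to 7.99), overlapped a butyrate H3K9ac peak, beside 32.7% of all control H3K9ac peaks. In the other direction 19 of the 406 butyrate peaks, 4.68% (3.02 to 7.19), overlapped a control peak, beside 31.2% of all butyrate H3K9ac peaks. At 200 bp 3.41% (1.17 to 9.55) of the control peaks without H3K27ac were found after butyrate, against 21.4% (17.5 to 25.7) of those under H3K27ac. Above 200 to 300 bp the shares were 5.53% (3.26 to 9.23) and 31.5% (29.6 to 33.4), and above 300 to 500 bp they were 7.14% (2.46 to 19.0) and 45.2% (42.1 to 48.3). For butyrate peaks the shares without and with H3K27ac were 3.81% and 21.3%, 3.75% and 29.5%, and 14.7% and 47.5% in these classes. These values too rest on the calls that chose the regions.

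**Figure D2:**
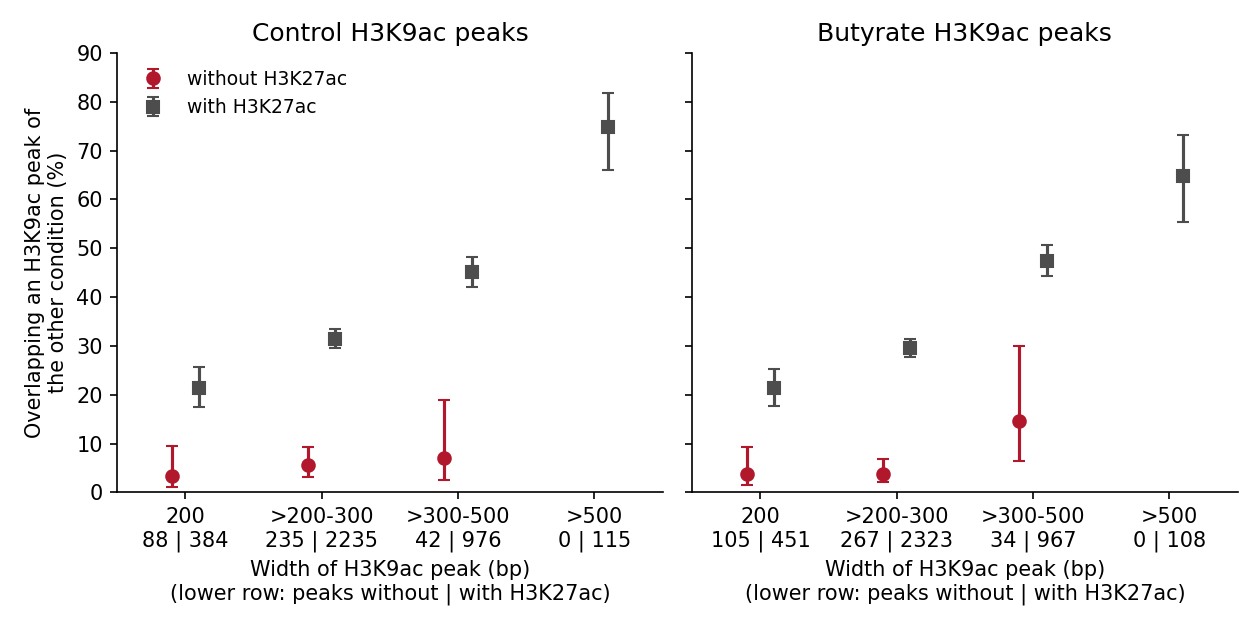
Share of H3K9ac peaks (%, y axis) that overlapped an H3K9ac peak of the other condition, by peak width in bp (x axis), for control peaks (left) and butyrate peaks (right), without H3K27ac (circles) and with it (squares); bars are Wilson 95% intervals and the numbers under the axis are peaks. Circles lie below squares in every class that held both, and no peak without H3K27ac was wider than 500 bp.

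A peak that moved to a neighbouring position would be missed by a count of overlaps. Of the 346 control peaks without an overlapping butyrate peak, 14 or 4.05% had a butyrate H3K9ac peak at most 1000 bp away. Of the 387 butyrate peaks 15 or 3.88% had a control peak that close. Under H3K27ac these shares were 13.9% of 2398 and 13.4% of 2539 peaks. Few of the regions without H3K27ac thus had an H3K9ac peak of the other condition beside them.

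The 19 regions with H3K9ac in both conditions lay on 11 chromosomes. The widest was chr15:42959020-42959638 (619 bp), where the nearest control H3K27ac peak was 729 bp and the nearest butyrate H3K27ac peak 10927 bp away. The next were chr11:11434491-11434878 (388 bp), at 147 bp from a butyrate H3K27ac peak, and chr9:99649246-99649628 (383 bp), at 431 bp from a control one. All coordinates are of the assembly UMD3.1.1. The region farthest from H3K27ac among the 19 was chr2:62076987-62077237 (251 bp), at 53748 bp. RNA pol II and H3K9me3 of both conditions were seen at 2 of them, chr6:6018984-6019357 (374 bp) and chr6:6295441-6295721 (281 bp).

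Of the regions with H3K9ac in control only, the widest were chr5:104627534-104627999 (466 bp), chr8:112581142-112581589 (448 bp) and chr23:6580950-6581368 (419 bp). None of these overlapped RNA pol II or H3K9me3, and the last was 61929 bp from the nearest H3K27ac peak, the others 2274 and 1080 bp. Of those with H3K9ac after butyrate only, the widest were chr14:15091438-15091935 (498 bp), chr7:23280231-23280704 (474 bp) and chr1:143480893-143481331 (439 bp). The region on chromosome 14 lay under a butyrate RNA pol II peak and under H3K9me3 peaks of both conditions, 53607 bp from H3K27ac. The region on chromosome 7 was 13741 bp from a control H3K27ac peak and 201 bp from a butyrate one.

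The next question was how far the regions lay from H3K27ac. The median distance to the nearest H3K27ac peak of either condition was 2963 bp (2316 to 3605), with quartiles of 499 and 11744 bp. Within 100 bp were 51 regions, within 1 kb 259 or 34.4% (31.1 to 37.9), within 10 kb 540 or 71.8% (68.5 to 74.9), and within 100 kb all but 18. H3K27ac peaks within 1 kb on both sides were found at 34 regions, 4.52% (3.25 to 6.25). The name of the class thus rests on the overlap of called peaks, and 259 regions lay next to it. Joining peaks at most 1 kb apart left 491 regions, and the median distance went from 1725 to 7699 bp under other settings for overlap and gaps.

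**Figure D3:**
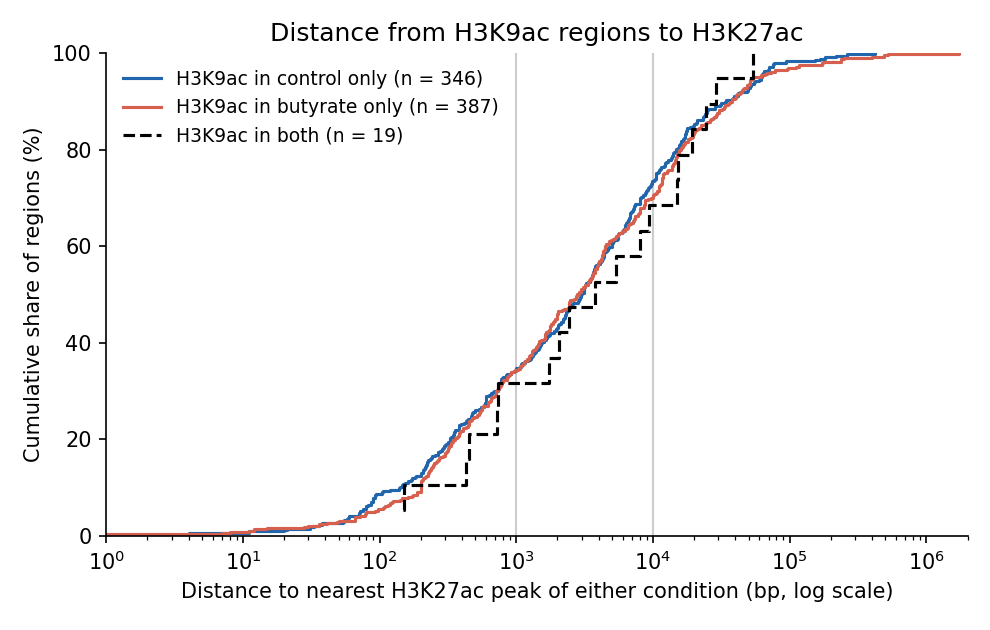
Cumulative share of the regions without H3K27ac (%, y axis) by the distance to the nearest H3K27ac peak of either condition (bp, log scale, x axis), for regions with H3K9ac in control only (n = 346), after butyrate only (n = 387) and in both (n = 19, dashed); vertical lines mark 1 kb and 10 kb. The curves of control only and butyrate only nearly coincide, with medians of 3017 and 2799 bp.

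Some regions lay within a few bp of the threshold of the choice. The closest region was chr3:19315224-19315423, which adjoined a butyrate H3K27ac peak (start minus end of 1 bp). Next came chr3:49069960-49070183 and, at the same distance, chr26:16612084-16612326, each 4 bp from a control H3K27ac peak. Just outside, a region at chr5:70574544-70575010 had an overlap of 3 bp between H3K9ac and H3K27ac, and a region at chr15:76823722-76824822 an overlap of 7 bp. In all, 91 of the H3K9ac regions with H3K27ac shared at most 100 bp with it.

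The distance had overlapping intervals for the classes by condition. Its median was 3017 bp (2205 to 3779) for regions with H3K9ac in control only and 2799 bp (1928 to 3781) for those after butyrate only. Within 1 kb of H3K27ac 2.32% (1.07 to 4.96) of regions had H3K9ac in both conditions, above 1 to 10 kb 2.49% (1.21 to 5.05), and above 10 kb 2.83% (1.30 to 6.04). Median region widths were 225, 220 and 224 bp in these classes. The intervals of the share called in both conditions thus overlapped at all distances.

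Around the regions H3K27ac peaks were common. Within 10 kb of the centre a mean of 1.83 control H3K27ac peaks was found, against 2.71 around H3K9ac regions with H3K27ac, where the peaks of the region itself were left out. After butyrate the means were 1.61 and 2.50. Within 100 kb the control means were 11.4 and 13.1. The ratio of butyrate to control H3K27ac peaks within 10 kb was 0.878, beside 0.886 for all H3K27ac peaks of these chromosomes. The nearest H3K27ac region was called in control only for 292 regions, 38.8% (35.4 to 42.4), after butyrate only for 164, 21.8% (19.0 to 24.9), and in both for 296, 39.4% (35.9 to 42.9). Over all 46230 H3K27ac regions these shares were 31.8%, 22.5% and 45.7%. The nearest H3K27ac region was of like condition for both groups of H3K9ac regions, with overlapping intervals. It was control only for 39.9% (34.9 to 45.1) of regions with H3K9ac in control only and for 38.0% (33.3 to 42.9) of those with H3K9ac after butyrate only.

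RNA pol II and H3K9me3 were not used in the choice of the regions. Of the 752 regions 35 overlapped an RNA pol II peak of either condition, 4.65% (3.37 to 6.40), beside 5.17% of all H3K9ac regions. H3K9me3 of either condition was found at 30 regions, 3.99% (2.81 to 5.64), beside 1.26% of all H3K9ac regions and 0.913% (0.700 to 1.19) of those with H3K27ac. In total 709 regions, 94.3% (92.4 to 95.7), had neither, near the 94.5% of all H3K9ac regions.

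By condition, control H3K9me3 peaks overlapped 25 regions and butyrate ones 22, beside 0.885% and 0.990% of all H3K9ac regions. Both H3K9me3 lists overlapped 17 of the regions, 2.26% (1.42 to 3.59), beside 0.615%. Because merged regions with H3K27ac are wider, with a median of 561 bp against 222 bp, the H3K9ac peaks themselves were also compared. Without H3K27ac, 3.29% (1.89 to 5.66) of control H3K9ac peaks overlapped H3K9me3 of either condition, and 5.42% (3.61 to 8.07) of butyrate ones did. For peaks under H3K27ac these shares were 1.05% (0.770 to 1.43) and 0.987% (0.720 to 1.35). Among peaks above 200 to 300 bp they were 4.26% (2.33 to 7.65) and 5.24% (3.15 to 8.61) without H3K27ac, and 0.850% (0.545 to 1.32) and 0.732% (0.457 to 1.17) with it. H3K9me3 was thus more frequent at H3K9ac peaks that lacked H3K27ac, in both conditions and at like width. All libraries were called against the same input library, whose part in these overlaps was not tested.

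Most regions with H3K9me3 also had RNA pol II. Of the 30 regions 22 did, 73.3% (55.6 to 85.8), and among the 54 H3K9ac regions with both H3K27ac and H3K9me3 it was 39, 72.2% (59.1 to 82.4). Regions with both RNA pol II and H3K9me3 made up 2.93% (1.94 to 4.39) of the regions without H3K27ac, beside 0.915% of all H3K9ac regions. RNA pol II of both conditions was found at 9 regions, 1.20% beside 0.750% of all H3K9ac regions, and each of these 9 had H3K9me3. Of the 30 regions with H3K9me3, 8 had H3K9ac in control only, 18 after butyrate only and 4 in both. These were 26.7% (14.2 to 44.4), 60.0% (42.3 to 75.4) and 13.3% (5.31 to 29.7), beside 46.0%, 51.5% and 2.53% of the 752 regions. The interval of the share after butyrate only included the 51.5% of all the regions. The share in control only was lower and that in both conditions higher, with intervals that left out 46.0% and 2.53%. Of the 4 regions in both conditions, 3 lay in the stretch of chromosome 6 described below.

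RNA pol II without H3K9me3 was seen at 13 regions, 1.73% (1.01 to 2.94), beside 4.26% of all H3K9ac regions, which are wider. At the level of peaks, RNA pol II of either condition without H3K9me3 was counted at control and at butyrate H3K9ac peaks. Without H3K27ac it was at 2.19% (1.11 to 4.26) of control and 1.23% (0.527 to 2.85) of butyrate H3K9ac peaks. Under H3K27ac the shares were 4.58% (3.96 to 5.30) and 4.05% (3.47 to 4.72). For control H3K9ac peaks the intervals overlapped, and for butyrate ones they did not. Among control peaks above 200 to 300 bp the shares were 1.70% (0.664 to 4.29) without H3K27ac and 3.94% (3.21 to 4.83) with it. Among butyrate peaks of that width they were 1.12% (0.383 to 3.25) and 3.19% (2.55 to 3.98). At like width the intervals thus overlapped for control and for butyrate H3K9ac peaks. By list, RNA pol II was at 21 regions in control and at 23 after butyrate, beside 2.17% and 3.75% of all H3K9ac regions. Among the 13, the 8 with H3K9ac in control only had RNA pol II in control at 4 and after butyrate at 4. The 5 with H3K9ac after butyrate only had it in control at 4 and after butyrate at 1.

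H3K9me3 was most frequent away from H3K27ac. It overlapped 3 of 259 regions within 1 kb of H3K27ac, 1.16% (0.395 to 3.35), 5 of 281 above 1 to 10 kb, 1.78% (0.762 to 4.10), and 22 of 212 above 10 kb, 10.4% (6.95 to 15.2). RNA pol II was found at 1.93% (0.827 to 4.44), 3.56% (1.94 to 6.43) and 9.43% (6.19 to 14.1). Of the regions above 10 kb, 15 had RNA pol II together with H3K9me3 and 5 had it alone. RNA pol II without H3K9me3 was at 0.772% (0.212 to 2.77), 2.14% (0.982 to 4.58) and 2.36% (1.01 to 5.40) in the 3 classes, with overlapping intervals. The median distance to H3K27ac was 33366 bp for the 30 regions with H3K9me3 and 2608 bp for the other 722. Of the 3 regions farthest from H3K27ac, chr3:72706879-72707095 at 1741380 bp overlapped butyrate H3K9me3, chr22:18561639-18561880 at 486335 bp overlapped RNA pol II and H3K9me3 of both conditions, and chr13:22209798-22210066 at 519939 bp overlapped neither. All of these had H3K9ac after butyrate only, beside 53.8% of the 212 regions above 10 kb.

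**Figure D4:**
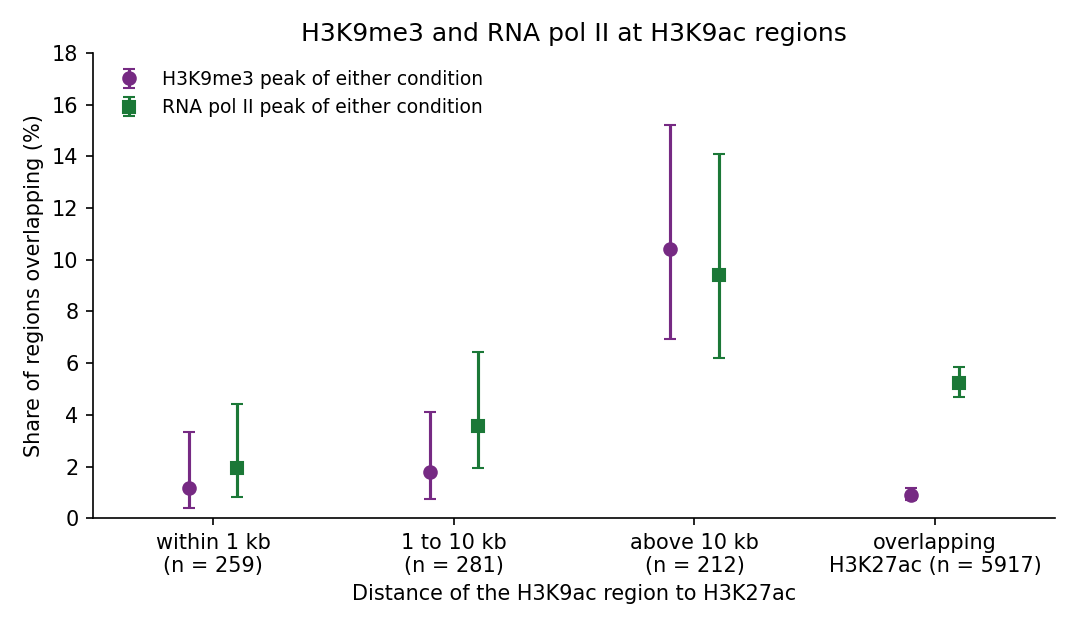
Share of H3K9ac regions (%, y axis) overlapping an H3K9me3 peak (circles) or an RNA pol II peak (squares) of either condition, by the distance of the region to H3K27ac (x axis), with the regions that overlap H3K27ac at the right; bars are Wilson 95% intervals. H3K9me3 reached 10.4% above 10 kb and was 0.913% at regions overlapping H3K27ac.

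The regions with H3K9me3 were spread over 15 chromosomes, but 8 of the 30 lay in a stretch of chromosome 6, chosen after the values had been seen, from 5468928 to 6928361. This stretch of 1459434 bp held 13 H3K9ac regions, 8 of them without H3K27ac, and all of these 8 overlapped H3K9me3 and 7 also RNA pol II. In addition, 3 of the 19 regions with H3K9ac in both conditions were among these 8. The stretch held 71 control and 38 butyrate H3K9me3 peaks, 35 and 26 RNA pol II peaks, and 10 and 6 H3K27ac peaks. Over chromosomes 1 to 29 the lists held 1536 control and 1710 butyrate H3K9me3 peaks, and 673 and 1242 RNA pol II peaks. After these and the region on chromosome 14, the widest with both H3K9me3 and RNA pol II were chr16:7343986-7344339 (354 bp), chr9:49478333-49478667 (335 bp) and chr3:17454184-17454517 (334 bp). All of them had H3K9ac after butyrate only, beside 60.0% of the 30 regions with H3K9me3.

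Along the genome the regions lay at 0.300 per Mb over the span of chromosomes 1 to 29. Chromosome 19 had the most, 0.609 per Mb, and chromosome 12 the fewest, 0.0658 per Mb. All H3K9ac regions lay at 6.67 and 1.28 per Mb on these chromosomes, and chromosome 19 had the most of those too. Its share of H3K9ac regions that lacked H3K27ac was 9.13% (6.75 to 12.2), beside 11.3% over all. The share of H3K9ac regions that lacked H3K27ac ranged from 5.13% (2.37 to 10.7) on chromosome 12 to 20.3% (15.2 to 26.7) on chromosome 14. On 26 of the 29 chromosomes the interval of this share included the 11.3% found over all. The exceptions were chromosome 12 and, above it, chromosomes 14 and 20, the last with 19.1% (12.3 to 28.5). The 29 intervals were not adjusted for their number. Regions called after butyrate only outnumbered those of control only on 14 chromosomes, and the reverse held on 12. Chromosome 5 had 37 in control only and 19 after butyrate only, chromosome 14 had 25 and 12, and chromosome 28 had 3 and 11. These chromosomes were picked after their values had been seen. The conditions of all H3K9ac regions were not counted by chromosome, so these numbers cannot be called particular to regions without H3K27ac.

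**Figure D5:**
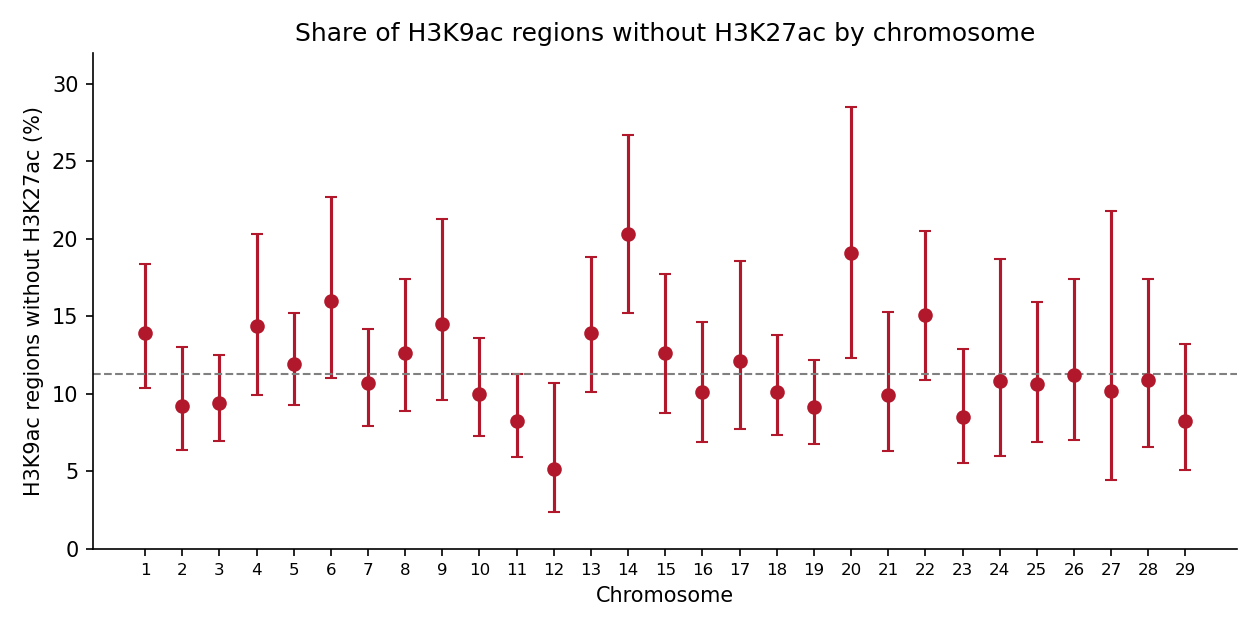
Share of H3K9ac regions without H3K27ac (%, y axis) on each of chromosomes 1 to 29 (x axis); bars are Wilson 95% intervals and the dashed line is the share over all, 11.3%. Chromosome 12 lies below the line and chromosomes 14 and 20 above it by more than their intervals.

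The spacing of the regions is given without a comparison to that of all H3K9ac regions. The median gap between neighbours was 1184 kb, and 26 of 723 neighbouring pairs were at most 10 kb apart, 13 of which joined a control-only with a butyrate-only region. Of 2523 windows of 1 Mb 2008 held none, 359 held 1 and 111 held 2. The fullest window, chr22:15000001-16000000, held 10 of its 22 H3K9ac regions without H3K27ac, 3 in control only, 6 after butyrate only and 1 in both. This window was rich in H3K27ac, with 53 control and 57 butyrate peaks, and none of the 10 had H3K9me3 or RNA pol II. On chr14:16000001-17000000, 7 of 9 H3K9ac regions lacked H3K27ac, 6 of them in control only. On chr5:104000001-105000000 and chr10:80000001-81000000 it was 7 of 35 and 7 of 32, with 6 and 5 in control only. On chr1:73000001-74000000 it was 6 of 11, 3 in control only and 3 after butyrate only. The conditions of all H3K9ac regions in these windows were not counted.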

How the data were processed

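Peak lists of rumen tissue, 1 per library, were analysed for 8 of the 9 libraries; the input served the authors as background. Per the methods, the authors removed reads that failed the Illumina filter, aligned the rest with BWA to UMD3.1.1 (UMD3.1 in the submitters' processing notes, which also name Trim Galore 0.4.1), kept unique alignments with fewer than 2 mismatches and called peaks per library with MACS2 against the input. The authors' deposited lists hold the chromosome, start and end of each peak without a score or read number, so depth is unknown here. The read type is given as single-end in the series text and as paired-end in the methods. Both ends of a peak were counted as part of it, counting from 1. Peaks were merged and compared with Python 3.11.15, pandas 2.3.3 and scipy 1.17.1, and the merging was checked against bedtools 2.31.1 on simulated data. Distances are start minus end, so that adjoining regions are 1 bp apart.

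The regions, width classes and comparisons were chosen with earlier results of these data known. Regions were named as the 3 widest in each condition class, the 5 widest with RNA pol II and H3K9me3, or RNA pol II in both conditions, the 3 farthest from and 2 closest to H3K27ac (another tied with the farther of these), the 2 with the shortest overlap, and the 5 fullest windows of 1 Mb. Other regions, among them single regions of those in both conditions, were picked after their values had been seen. No genome or gene annotation of UMD3.1.1 was used, so genes and sequences at the regions are not given. Alternatives were the overlap, the gap, the peak width, the chromosomes, regions with H3K9me3 and the order of the lists.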

Additional observations from a re-analysis of the deposited data

Results flagged for a closer look

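On X, which the choice of regions left out, 15 H3K9ac regions without H3K27ac were called after butyrate only, above the 1 called in control only, and 2 were called in both. These 18 regions were 20.5% (13.3 to 30.0) of the 88 H3K9ac regions of X, and 13 of them, 72.2% (49.1 to 87.5), overlapped H3K9me3 and 9 of the 18 RNA pol II. Over all 88 H3K9ac regions of X, which include these 18, the shares were 47.7% (37.6 to 58.0) and 43.2% (33.3 to 53.6). The intervals overlapped, but they compare a part with its whole, and regions of X with H3K27ac were not counted apart. The share with RNA pol II was near that of X as a whole. Over all H3K9ac regions of X, 52 were called after butyrate only and 18 in control only. After butyrate only was thus 59.1% (48.6 to 68.8) of them, beside 83.3% (60.8 to 94.2) of those without H3K27ac. The 2 H3K9ac libraries were on different lanes, and the part of the lane or of depth in this was not tested.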

How the results depend on the processing

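No paired analysis was possible because no antibody had more than 1 library per condition. Of 110 values under other settings, 85 stayed within the interval of the reported value (counts within 1.5 times). The log2 ratio of butyrate to control peaks stayed positive under each setting. The share with RNA pol II changed direction between the classes. In the main setting it was 4.65% without H3K27ac and 5.24% with it. Without any acetylation peak of 200 bp it was 5.67% and 5.47%, and with X added 5.71% and 5.66%. The share called in both conditions stayed between 2.08% and 2.86%, against 21.0% to 27.6% for regions with H3K27ac. Where an overlap had to cover 50% of the shorter peak, the regions made up 12.5% of H3K9ac regions, the median distance was 1725 bp, since partly overlapping regions count as 0, and regions with H3K27ac had 21.2% in both conditions and 4.54% with RNA pol II. Joining peaks at most 500 bp apart gave 9.08%, 5680 bp, 26.4% and 6.25%, and at most 1 kb apart 8.24%, 7699 bp, 27.6% and 6.64%, with 491 regions left. Without H3K9ac peaks of 200 bp the share was 9.61% and the median widths 238 and 235 bp in control and butyrate; without any acetylation peak of 200 bp they were 10.5%, 238 and 236 bp. These shifts in distance and width follow from the settings. Adding X raised H3K9me3 at regions with H3K27ac to 1.39%. Chosen after seeing the data, leaving out regions with H3K9me3 gave RNA pol II at 1.80% of regions without and 4.62% with H3K27ac, and the first 50% of the H3K9ac lists in file order, whose meaning is not stated, gave 359 regions, 3672 bp and 21.0%. Causes not named were not tested. Scores and depth were not at hand, so a stricter threshold was tried by width and order only.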

Other observations

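H3K9ac peaks that lacked H3K27ac in their own condition were more numerous than those in the regions described, since some lay under H3K27ac of the other condition. In control 567 H3K9ac peaks, 13.9% (12.9 to 15.0) of 4075, had no control H3K27ac peak, and 202 of them lay under a butyrate H3K27ac peak. After butyrate 713 of 4255 H3K9ac peaks, 16.8% (15.7 to 17.9), had no butyrate H3K27ac peak, and 305 of them lay under a control H3K27ac peak. As shares of all H3K9ac peaks of the condition those under H3K27ac of the other condition alone came to 4.96% (4.33 to 5.67) for control and 7.17% (6.43 to 7.98) for butyrate. The butyrate H3K27ac list held 32763 peaks on chromosomes 1 to 29 and the control list 36963. After butyrate 2 further H3K9ac peaks overlapped no H3K27ac peak but were joined to it through a control H3K9ac peak and so were left out.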
